A study of Mus musculus with 6 samples.

Results

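Granins are the acidic secretory proteins that fill dense-core granules, the storage compartments of neuroendocrine cells. The 6 genes described are Chga, Chgb, Scg2, Scg3, Scg5 and Vgf, taken with every probe set that the platform annotation gives to one of them alone. Each gene had 1 such probe set, so 6 of the 45037 probe sets tested, and 6 of 18193 named genes, are described. The data are expression microarrays of carotid body and adrenal medulla from untreated adult C57/BL6 mice, with 3 arrays per tissue. Each carotid body array held RNA of 18 pooled organs and each adrenal medulla array RNA of 10 pooled organs, always from 10 mice, and the series describes arrays with the same group number as one cohort of animals. Because every array is a pool, animal and technical variation cannot be told apart within a tissue.

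In chromaffin cells of the adrenal medulla and in glomus cells, the oxygen-sensing cells of the carotid body, catecholamines are stored in dense-core granules together with granins and peptides. Chromogranins and secretogranins aggregate in the acidic, calcium-rich trans-Golgi network and take part in granule formation, and several are cut at paired basic residues into bioactive peptides. Scg3 and Scg5 act more as helpers than as bulk cargo, Scg3 by tethering chromogranin A to the granule membrane and Scg5 (7B2) as a chaperone of the convertase PC2.

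The proximal promoters of granin genes are known for cAMP response elements, which bind factors of the CREB family, so the promoter windows are shown here for 3 genes whose RNA differed between the tissues and for 2 whose RNA was not called. Each window runs from 250 bases before an annotated start to 50 bases from it, in RefSeq build GRCm38.p6. Vgf had no entry, and 5 of the 6 members matched one. They are Chga (chr12:102554691-102554990, plus strand), Chgb (chr2:132781392-132781691, plus strand), Scg2 (chr1:79439977-79440276, minus strand), Scg3 (chr9:75684007-75684306, minus strand) and Scg5 (chr2:113829042-113829341, minus strand). The windows of Chga, Chgb, Scg2 and Scg5 are set on the gene start. That of Scg3 lies inside the gene, whose start is at base 75685959 on the minus strand. It therefore does not show the sequence at that start. Capitals mark the half-site TGACG on either strand, and where both strands match and overlap they spell the whole element TGACGTCA.
Chga: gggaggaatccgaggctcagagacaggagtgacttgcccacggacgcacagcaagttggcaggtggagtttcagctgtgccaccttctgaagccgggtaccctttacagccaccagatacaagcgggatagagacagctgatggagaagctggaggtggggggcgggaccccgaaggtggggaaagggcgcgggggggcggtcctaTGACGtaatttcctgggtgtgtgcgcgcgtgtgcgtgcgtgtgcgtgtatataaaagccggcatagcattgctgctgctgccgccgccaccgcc
Chgb: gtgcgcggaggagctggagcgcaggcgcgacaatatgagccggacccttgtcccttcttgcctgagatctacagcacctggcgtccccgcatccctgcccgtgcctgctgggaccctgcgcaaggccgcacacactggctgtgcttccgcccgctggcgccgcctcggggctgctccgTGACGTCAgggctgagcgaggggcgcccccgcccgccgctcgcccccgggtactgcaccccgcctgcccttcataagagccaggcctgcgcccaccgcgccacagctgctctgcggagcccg
Scg2: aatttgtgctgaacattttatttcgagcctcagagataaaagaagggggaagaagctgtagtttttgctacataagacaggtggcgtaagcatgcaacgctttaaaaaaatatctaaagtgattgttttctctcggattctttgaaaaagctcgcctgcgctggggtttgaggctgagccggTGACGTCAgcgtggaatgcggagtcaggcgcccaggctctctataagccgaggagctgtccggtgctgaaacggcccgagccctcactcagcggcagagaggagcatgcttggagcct
Scg3: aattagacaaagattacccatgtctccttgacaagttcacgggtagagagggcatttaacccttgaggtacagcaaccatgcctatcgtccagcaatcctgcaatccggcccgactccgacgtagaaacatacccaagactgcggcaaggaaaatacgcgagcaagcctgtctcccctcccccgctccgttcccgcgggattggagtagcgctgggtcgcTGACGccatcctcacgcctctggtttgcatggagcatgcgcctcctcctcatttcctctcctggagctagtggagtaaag
Scg5: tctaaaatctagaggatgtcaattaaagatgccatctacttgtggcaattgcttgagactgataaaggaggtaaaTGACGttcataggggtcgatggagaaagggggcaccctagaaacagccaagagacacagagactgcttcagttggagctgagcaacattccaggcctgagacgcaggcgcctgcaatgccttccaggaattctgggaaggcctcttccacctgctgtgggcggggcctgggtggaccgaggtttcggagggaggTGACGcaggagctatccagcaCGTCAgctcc

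Chgb and Scg2 each held 1 whole element TGACGTCA, starting 72 bases before the gene start in Chgb and 68 bases before it in Scg2. Among 32851 promoter windows of the same length, 1.79% held that element. The shorter TGACGT, which is part of the whole element, was in the windows of Chga, Chgb, Scg2 and Scg5 and in 7.51% of all windows. In Chga it started 44 bases before the gene start, and in Scg5 it lay 175 bases before and 39 bases after it. The window of Scg3, which is not at its gene start, held 1 half-site TGACG and no longer match. The half-site was present in 20.8% of all windows. A TATAAA match was found in Chga only, 5 bases after the annotated start, against 13.6% of all windows. GGGCGG matches, 2 in Chga, 2 in Chgb, 1 in Scg5 and 0 in Scg2 and Scg3, were present in 35.7% of all windows. These are matches of letters on both strands, not measured binding. The half-site motifs were settled after the sequences and the tissue differences had been seen.

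**Figure D1:**
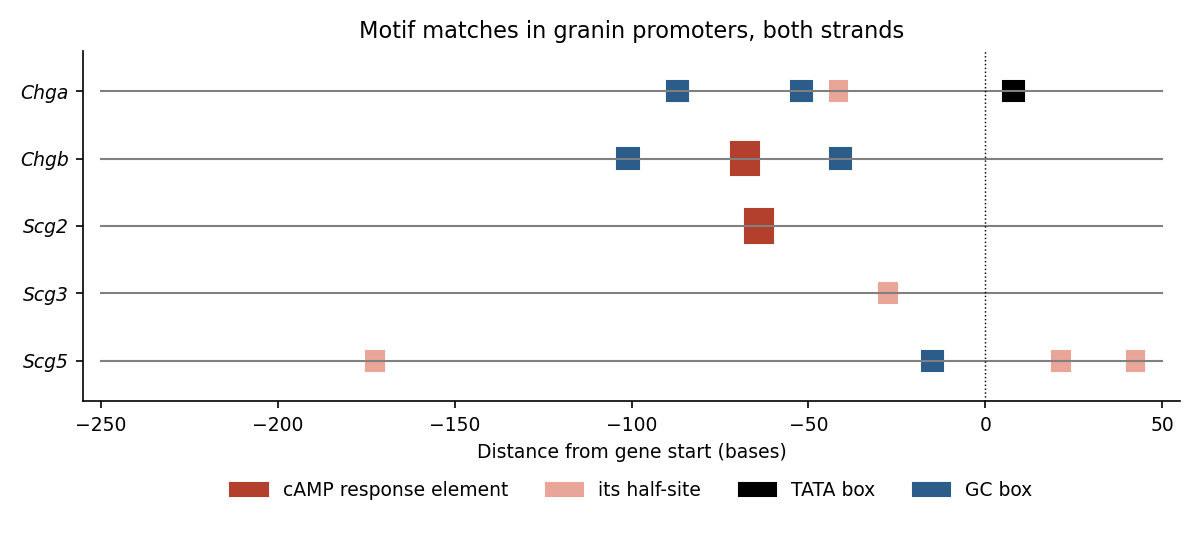
Motif matches in the promoter windows of 5 granin genes, by distance in bases from the start that each window is set on (x axis). For Scg3 that start lies inside the gene. Boxes are matches on either strand to the cAMP response element, its half-site, the TATA box and the GC box; the whole element is seen in Chgb and Scg2, at 72 and 68 bases before the start.

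All values below are log2 probe set levels as deposited, and differences are carotid body minus adrenal medulla. A probe set was called at an adjusted p under 0.05 (limma, Benjamini-Hochberg over 45037 probe sets) and a difference of at least 2-fold. Before the members are described, 3 features of the arrays matter. Adrenal cortex markers were high in carotid body array 1, where the mean level of 12 measured markers was 9.67, against 5.43 and 5.19 in carotid body arrays 2 and 3 and 11.04 to 11.62 in the adrenal medulla arrays. The adrenal medulla pools therefore also held cortex RNA. Xist lay between 8.84 and 10.96 on carotid body arrays, against 4.45 to 5.60 on adrenal medulla arrays, and the Y-linked Eif2s3y lay between 7.71 and 7.91, against 8.47 to 8.50. The labels used here give no sex, and a shared cohort of animals would be expected to give both tissues the same mix of sexes, so these values and the stated cohorts are not easily reconciled. Which of them holds was not tested. If the pools differ in sex, its part cannot be told apart from that of tissue in any granin difference. As a sign of RNA quality, the 3' probe set of the Gapdh control exceeded the 5' one by 0.59 to 1.45 on the carotid body arrays, against 0.13 to 0.61 on the adrenal medulla arrays. Its part in the granin differences was not tested.

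Of the 6 members, 4 were called lower in carotid body (Chga, Chgb, Scg2 and Vgf), 0 were called higher, and Scg3 and Scg5 were not called. Over all probe sets, 4.58% were called lower and 5.95% higher. The 6 members had a median difference of -1.50, beside a median of -0.04 over all genes. All 6 differences were below 0, but the size varied from -0.10 to -2.80. In pooled tissue, fewer granule-storing cells and less RNA per cell cannot be told apart.

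Chga encodes chromogranin A, the precursor of vasostatins, pancreastatin and catestatin and a general marker of neuroendocrine cells. It was 12.32, 12.24 and 12.35 in carotid body arrays 1, 2 and 3, against 14.28, 14.59 and 14.27 in adrenal medulla arrays 1, 2 and 3. The groups did not overlap, and the carotid body arrays lay within a narrow band, with an SD of 0.05 against 0.18 in adrenal medulla. The difference was -2.08 ± 0.13 (SE, n = 3 arrays per tissue; limma adjusted p = 6.85e-05), a carotid body level 0.237 times that of adrenal medulla (95% confidence interval 0.192 to 0.291). Only 1.40% of genes had a difference at or below that of Chga.

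Scg2, secretogranin II, is the precursor of the neuropeptide secretoneurin. Its levels were 12.44, 12.45 and 12.71 in carotid body arrays 1 to 3, against 14.35, 14.52 and 14.23 in adrenal medulla. The groups were again separate, and the spread was alike, with an SD of 0.15 in both tissues. The difference was -1.83 ± 0.13 (SE; limma adjusted p = 0.000147), which is 0.281 times the adrenal medulla level (95% confidence interval 0.226 to 0.349).

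Chgb encodes chromogranin B, the granin that most closely resembles chromogranin A. It was 13.69, 13.89 and 13.53 in carotid body arrays 1 to 3, against 14.85, 14.97 and 14.83 in adrenal medulla. Each carotid body array lay below every adrenal medulla array. The difference was -1.18 ± 0.13 (SE; limma adjusted p = 0.000784), or 0.442 times the adrenal medulla level (95% confidence interval 0.359 to 0.545). The Chgb probe set was the brightest of all 45037 on each of the 3 adrenal medulla arrays and ranked between 55 and 99 on the carotid body arrays, so its adrenal medulla values stand at the top of the scale. Whether saturation there compressed the difference was not tested. After quantile normalization the Chgb difference was -0.99 (adjusted p = 0.00111), just short of 2-fold, so the call ended.

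The probe sets of Chga and Scg2 were also near the top of the scale in adrenal medulla, at ranks 4 to 14 and 5 to 10, against ranks 406 to 460 and 272 to 383 in carotid body. The 3 members without overlap between tissues can be set beside 20.4% of all probe sets that did not overlap with carotid body lower.

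**Figure D2:**
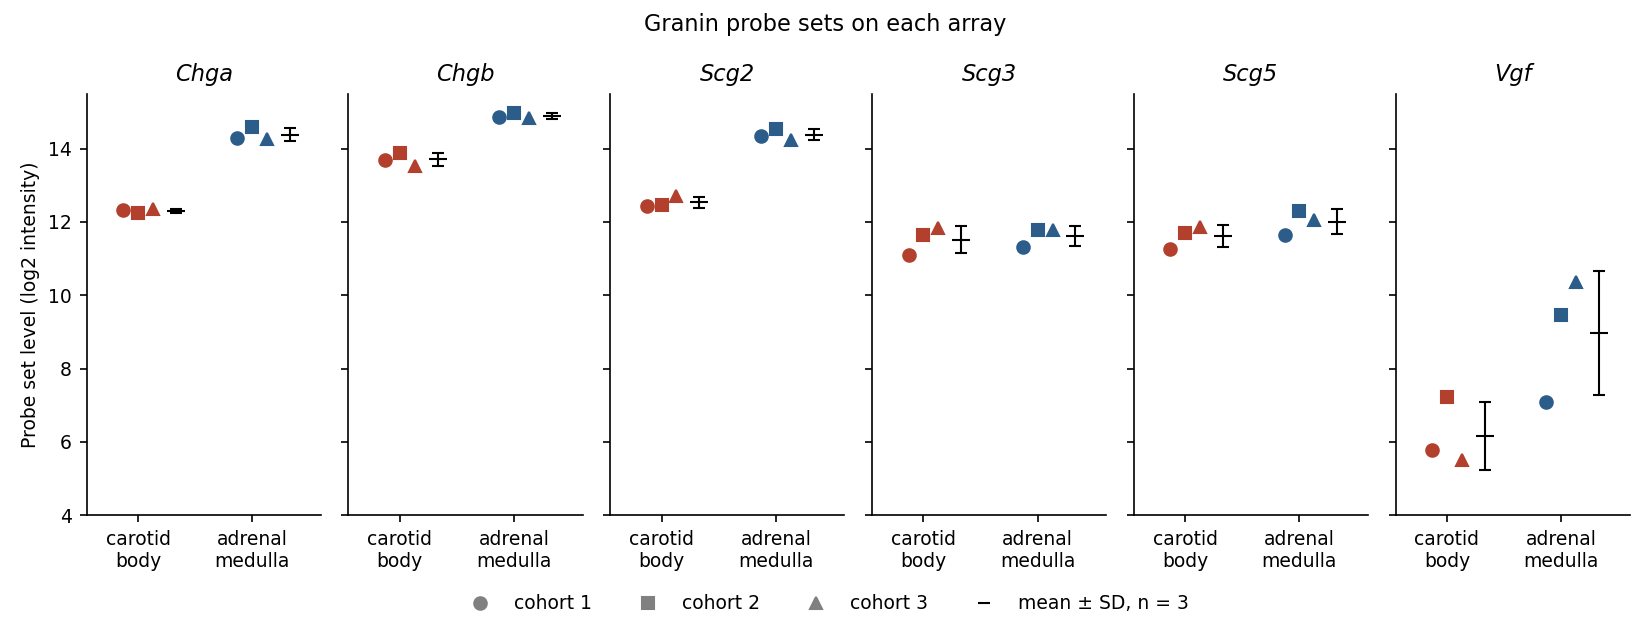
Log2 level (y axis) of the 6 granin probe sets on each carotid body and adrenal medulla array, with marker shape for the cohort and black bars for the mean ± SD (n = 3). Chga, Chgb and Scg2 are separate between tissues, Scg3 and Scg5 overlap, and Vgf is spread from 7.08 to 10.37 in adrenal medulla.

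Vgf encodes a neurotrophin-inducible granin that is cut into peptides acting on energy balance, and it was the most variable member. It was 5.77, 7.23 and 5.52 in carotid body arrays 1 to 3, against 7.08, 9.46 and 10.37 in adrenal medulla. The values of carotid body arrays 1 and 3 were near the medians of those arrays, 5.32 and 5.25. Carotid body array 2 was above adrenal medulla array 1, so the groups overlapped. The SD of the carotid body arrays was 0.93 and that of the adrenal medulla arrays 1.70, at or above the SD of 98.9% and 99.9% of all genes. The difference was -2.80 ± 0.82 (SE; limma adjusted p = 0.0438), with a 95% confidence interval of -4.71 to -0.89. Within cohorts 1, 2 and 3 it was -1.31, -2.23 and -4.86, lower in carotid body each time but of very unequal size. The call held without adrenal medulla array 1 (-3.74, adjusted p = 0.00527) and ended without any other single array. It was -2.60, -3.33 and -2.47 without carotid body arrays 1, 2 and 3 (adjusted p = 0.106, 0.0520 and 0.0907), and -2.55 and -2.10 without adrenal medulla arrays 2 and 3 (adjusted p = 0.147 and 0.130).

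Scg3 encodes secretogranin III, which binds cholesterol-rich granule membrane and chromogranin A. It was 11.09, 11.65 and 11.83 in carotid body arrays 1 to 3, against 11.31, 11.79 and 11.77 in adrenal medulla. The groups overlapped almost fully, and the array of cohort 1 was the lowest in both tissues. The difference was -0.10 ± 0.22 (SE; limma adjusted p = 0.795), and the 95% confidence interval ran from -0.62 to 0.41, that is from 0.651 to 1.33 times the adrenal medulla level. A 2-fold difference lies outside that interval, and differences within it cannot be resolved with 3 arrays per tissue.

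Scg5 encodes 7B2, the chaperone that keeps the precursor of the convertase PC2 in a form that can be activated. It was 11.27, 11.69 and 11.87 in carotid body arrays 1 to 3, against 11.64, 12.30 and 12.06 in adrenal medulla. Carotid body was lower within each of the 3 cohorts, by -0.36, -0.61 and -0.19, although the groups overlapped. The difference was -0.39 ± 0.21 (SE; limma adjusted p = 0.248, or 0.0864 when cohort was fitted as a block), with a 95% confidence interval of -0.89 to 0.11. The gene of PC2 itself, Pcsk2, had no probe set annotated to it alone and is not analysed here.

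Without carotid body array 1, the array with cortex markers, the differences of Chga, Chgb and Scg2 were -2.09, -1.17 and -1.78, and those of Scg3 and Scg5 were 0.11 and -0.22. The calls of the first 3 were as with all arrays. Leaving out any single array kept Chga between -2.13 and -1.97, Chgb between -1.27 and -1.09 and Scg2 between -1.92 and -1.75, with adjusted p of at most 0.00691 (limma).

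**Figure D3:**
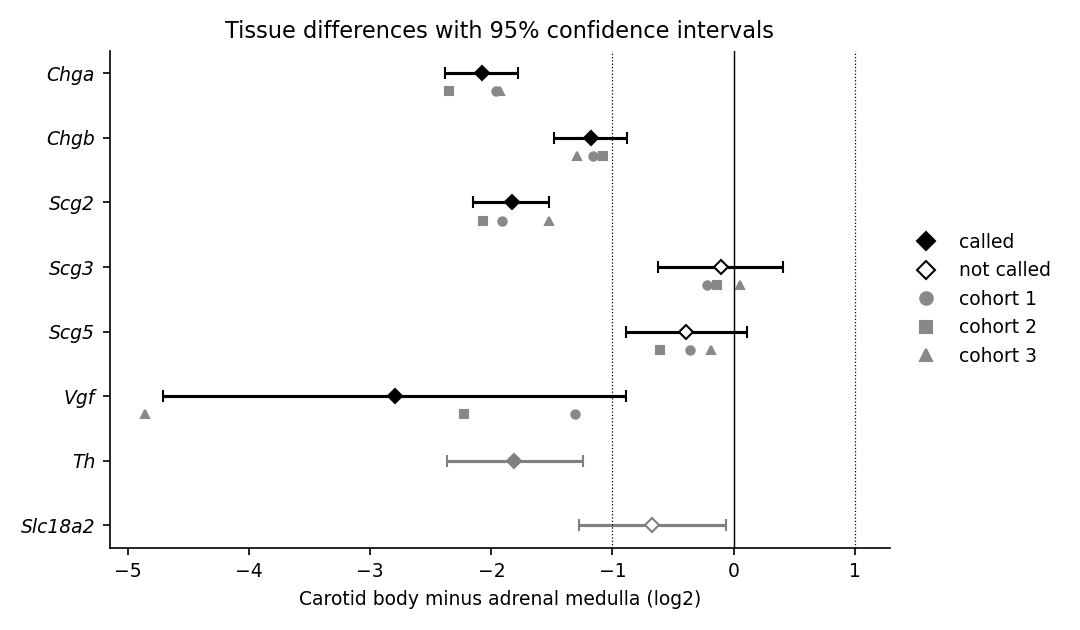
Carotid body minus adrenal medulla difference (x axis, log2) of the 6 granins (black) and of Th and Slc18a2 (grey), with 95% confidence intervals from limma; filled diamonds were called and open ones were not. Small grey symbols are the differences within each cohort, and dotted lines mark 2-fold. The intervals of Chga, Chgb, Scg2 and Vgf lie below 0, those of Scg3 and Scg5 span it.

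The sizes of the tissue differences were then compared between members. For each of the 15 pairs of members the log2 ratio within an array was compared between tissues, and in 11 pairs the 3 carotid body ratios did not overlap the 3 adrenal medulla ratios. With 3 arrays against 3 the exact two-sided permutation test cannot give a p under 0.1, which these 11 pairs reached (adjusted p = 0.136 over the 15 pairs), so no pair passed. Of single probe sets, 20.4% did not overlap with carotid body lower and 19.8% with it higher. The share of ratios between all genes was not computed. The tissue difference of Chga minus that of Scg3 was -1.98 ± 0.26 (log2, SE), and minus that of Scg5 it was -1.69 ± 0.22. The smallest such values were -0.25 ± 0.08 for Chga minus Scg2 and 0.29 ± 0.08 for Scg3 minus Scg5. The 4 pairs whose ratios overlapped were those of Vgf with Chga, Chgb, Scg2 and Scg5.

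The granins were also set against 2 genes of catecholamine storing cells measured on the same arrays. Th encodes tyrosine hydroxylase, the rate-limiting enzyme of catecholamine synthesis, and Slc18a2 the transporter that loads catecholamines into granules. Th was 11.42, 11.89 and 11.76 in carotid body, against 12.97, 13.83 and 13.70 in adrenal medulla, a difference of -1.81 ± 0.24 (SE; limma adjusted p = 0.00191). Slc18a2 differed by -0.67 ± 0.26 (adjusted p = 0.109).

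Relative to Th, Scg2 and Chga differed between tissues by -0.03 ± 0.30 and -0.27 ± 0.27 (SE), less than the spread between arrays, and Chgb by 0.63 ± 0.29. The values of Scg3 and Scg5 relative to Th were 1.70 ± 0.16 and 1.42 ± 0.13, with every carotid body array above every adrenal medulla array. Relative to Slc18a2, those of Chga and Scg2 were -1.41 ± 0.34 and -1.16 ± 0.32, with every carotid body array below. The log2 ratio of Scg3 to Slc18a2 was the steadiest of the 12 examined, with an SD of 0.11 for carotid body, against 0.13 for adrenal medulla, and differed by 0.57 ± 0.10. Of the 12 comparisons, 5 did not overlap and had the smallest possible exact permutation p of 0.1 (adjusted p = 0.240), so none passed a threshold of 0.05. The share of all genes whose ratio to Th or Slc18a2 does not overlap was not computed.

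**Figure D4:**
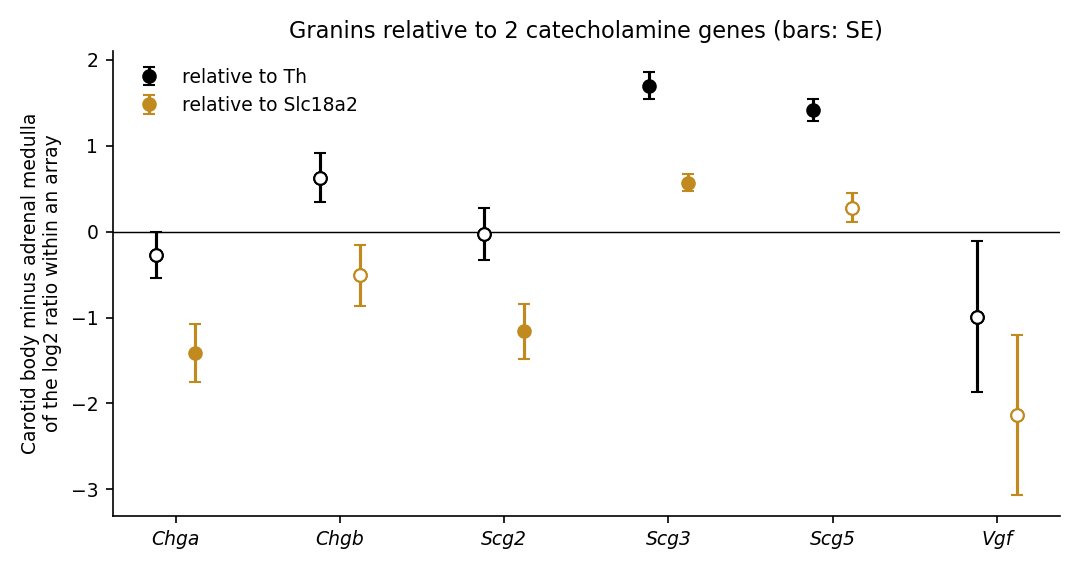
Carotid body minus adrenal medulla difference of the log2 ratio of each granin to Th (black) and to Slc18a2 (ochre), with SE bars (3 arrays per tissue); filled points have no overlap between tissues. Relative to Th, Scg2 and Chga lie at -0.03 and -0.27 and Scg3 and Scg5 at 1.70 and 1.42.

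For each member the named genes with the most similar profile over the 6 arrays were found. Similarity was the smallest root mean square distance between mean-centred log2 levels. Compared were the 7256 of 18193 genes whose brightest probe set had a mean at or above the 75th percentile of all 45037 probe sets. For Chga the nearest genes were Dlg2 at 0.12, Zkscan16 at 0.14 and the fellow granin Scg2 at 0.15. For Chgb they were Hps1 at 0.05, a gene of lysosome-related organelle formation, Mroh1 at 0.11 and Maoa at 0.11, the monoamine oxidase that degrades catecholamines. For Scg2 they were Tnfrsf12a at 0.11, Ocrl at 0.11 and Scrn1 at 0.14. The Scg3 profile was nearest to Slc6a17, a synaptic vesicle transporter, Amph, an endocytosis protein, and Kcnmb2, a subunit of big-conductance potassium channels, each at 0.06. Scg5 was nearest to Gnl3l at 0.04, AW551984 at 0.06 and Ap1s1 at 0.07, an adaptor subunit of the trans-Golgi network. For Vgf no profile was near: Omg at 0.82, Rap1gap2 at 0.91 and the endothelin gene Edn3 at 0.92 were the closest. The 6 arrays share the contrast of the 2 tissues, which enters each profile. Several of these genes had another probe set that differed, for example Hps1 (4 probe sets, from -1.51 to 0.17) and Dlg2 (3 probe sets, from -2.07 to -0.68).

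Genes related to granins were examined as 6 lists, 5 of proteins of dense-core granules and their release and 1 of nuclear regulators of granin or neuroendocrine genes. In the 5 granule lists 65 of 69 genes were measured, of which 11 were called lower in carotid body and 3 higher, with a median difference of -0.35. With the regulators it was 78 of 85 measured, 15 lower and 3 higher, with a median of -0.36, beside 6.08% of all genes called lower, 5.91% called higher and a median of -0.04. Over all 6 lists, 16 were lower without cohort 1, 8 without cohort 2 and 11 without cohort 3.

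Among 8 measured processing enzymes, 2 were lower and 1 was higher. Pcsk1, the convertase PC1/3 that cuts granins and prohormones, averaged 5.26 ± 0.43 in carotid body, against 9.49 ± 0.22 in adrenal medulla (SD, n = 3 each), and differed by -4.23 (limma adjusted p = 3.92e-05). In carotid body arrays 1 to 3 Pcsk1 was 5.37, 5.63 and 4.79, near the array medians of 5.32, 5.30 and 5.25. Its inhibitor proSAAS, Pcsk1n, itself often counted among granin-like proteins, differed by -1.74 (adjusted p = 0.00899). The carboxypeptidase gene Cpd was higher, by 1.17 (adjusted p = 0.000403), though its 7 probe sets ranged from 0.09 to 1.17.

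Of 10 genes of the granule membrane and transport, 3 were lower and 0 higher. Dopamine beta-hydroxylase, Dbh, differed by -3.41 (limma adjusted p = 0.00548) and the vesicular transporter Slc18a1 by -2.42 (adjusted p = 0.000287), with Slc18a1 probe sets from -2.42 to 0.01. Dbh was uneven in carotid body, at 10.20, 10.23 and 7.86 in arrays 1 to 3. Its 3 probe sets ranged from -4.83 to -3.41. Without single arrays the Dbh difference ranged from -3.81 to -2.63, and the call held. Ptprn, a membrane protein of dense-core granules also known as IA-2, differed by -1.76 (adjusted p = 0.0149), and this call ended without adrenal medulla array 2 or 3 (adjusted p of at most 0.0598).

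Of 14 granule biogenesis genes 0 were called by limma at 2-fold; 6 were lower and 1 higher at an adjusted p under 0.05 alone, where 16.5% of all genes were lower and 10.9% higher. Ica1 and Vps52, of granule budding and of endosomal tethering, differed by -0.86 and -0.83, and Ica1l by 0.91 (adjusted p = 0.00707, 0.0127 and 0.0420). Ica1l became a call without carotid body array 1, but without single arrays it ranged from 0.59 to 1.07, with an adjusted p of up to 0.146. Its level lay below the array median on every array. For Vps52 the adjusted p rose to at most 0.0583. The absence of biogenesis calls rests on the brightest probe set of each gene. Probe sets ranged from -1.46 to -0.86 for Ica1, from -1.54 to -0.45 for Rab2b and from 0.23 to 1.26 for Ccdc186. With the probe sets of each gene averaged, 1 biogenesis gene was called lower and 0 higher. Of 16 release genes 2 were lower, Rph3a, a Rab3 effector, at -1.99 (adjusted p = 0.00175) and Cadps2, a priming factor, at -1.35 (adjusted p = 0.0240). Rph3a was 5.43, 5.53 and 5.08 in carotid body arrays 1 to 3, near the array medians. The call of Cadps2 ended when array 2 or array 3 of either tissue was left out, with an adjusted p of at most 0.0956. Sytl4, granuphilin, differed by -0.93 (adjusted p = 0.0344), under 2-fold, and its other probe set by 0.02. It became a call when carotid body array 2 or adrenal medulla array 1 was left out.

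Peptides stored with granins went both ways, with 4 of 17 genes lower in carotid body and 2 higher. Adcyap1, Nts, Sst, Cck, Pdyn, Nppa and Bdnf lay below the array median on every array. The list median of -0.01 therefore rests partly on dim probe sets. Npy averaged 11.44 ± 0.20 in carotid body, against 14.43 ± 0.30 in adrenal medulla (SD, n = 3 each), and differed by -2.99 (limma adjusted p = 6.31e-05). Gal differed by -3.29 (adjusted p = 0.00016) and Cartpt by -3.46 (adjusted p = 0.00336). Cartpt was 5.53, 4.53 and 5.95 in carotid body arrays 1 to 3, where the array medians were 5.32, 5.30 and 5.25. The remaining calls, named after their values were seen, were Nppb at -1.01, Adm at 1.24 and the enkephalin precursor Penk at 1.01. Nppb was dim in both tissues. It lay below the array median on every carotid body array. In adrenal medulla it was 5.24, 5.27 and 5.52, beside array medians of 5.18, 5.16 and 5.18. Nppb fell short of 2-fold without carotid body array 1 or 3 or without adrenal medulla array 3 (lowest size -0.92), and Penk without carotid body array 1 or 2 or without adrenal medulla array 1 (lowest 0.97).

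**Figure D5:**
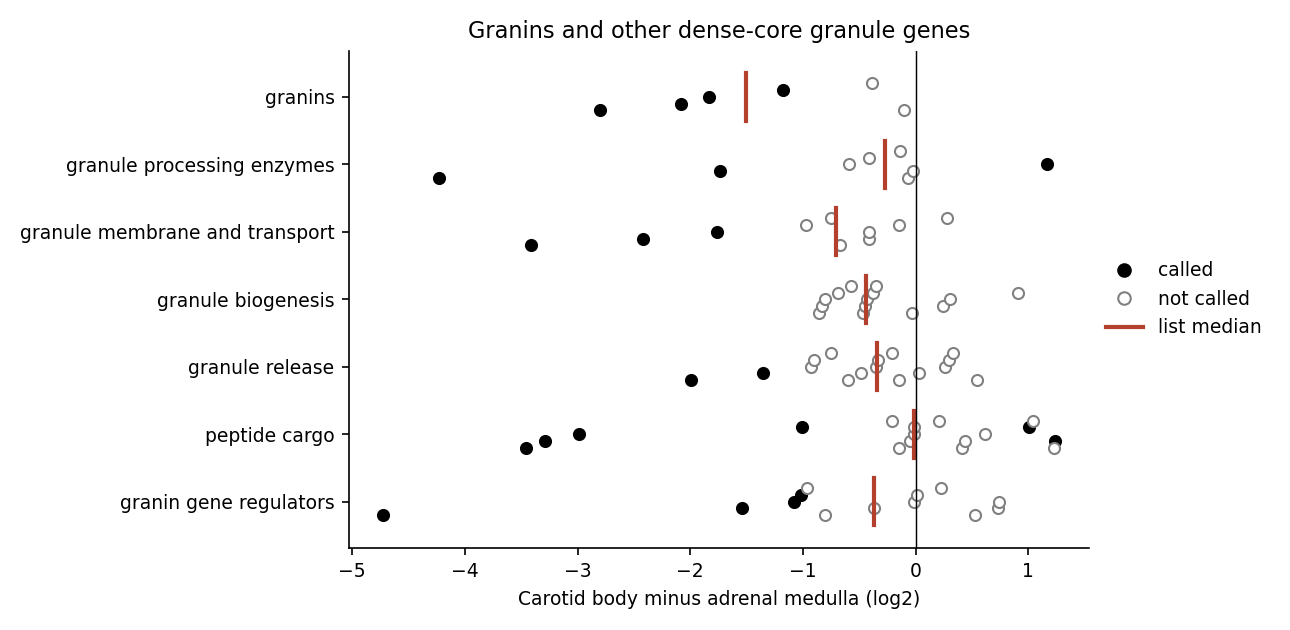
Carotid body minus adrenal medulla difference (x axis, log2) of every measured gene in the granin group and 6 related lists; black points were called, open points were not, and red bars are list medians. The granin median is -1.50 and the peptide cargo median is -0.01, with called genes on both sides in the cargo and processing lists. Several cargo genes lay below the array median on every array.

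Among 13 measured genes known to regulate granin or neuroendocrine genes, 4 were lower and 0 higher. Gata3, of sympathoadrenal development, differed by -4.73 (limma adjusted p = 7.76e-05), Gata2 by -1.54 (adjusted p = 0.00242) and Egr1, an immediate-early factor, by -1.08 (adjusted p = 0.00699). Gata3 was 6.42, 5.66 and 5.21 in carotid body arrays 1 to 3, where the array medians were 5.32, 5.30 and 5.25. The other called gene, Phox2a, differed by -1.02 and was named after its value was seen. Its call ended when carotid body array 1, adrenal medulla array 2 or adrenal medulla array 3 was left out (lowest size -0.82). The call of Egr1 ended without carotid body array 2 or 3. Rest, the repressor of neuronal genes including granins, was 7.75, 7.02 and 7.69 in carotid body, against 7.75, 7.43 and 7.30 in adrenal medulla. Its groups overlapped, and the difference was -0.01 ± 0.22 (SE; adjusted p = 0.987). Genes of factors that bind the cAMP response element, picked from the list after their values were seen, went both ways and were not called: Creb1 differed by 0.53 (adjusted p = 0.0431; 6 probe sets from 0.07 to 0.75) and Crem by -0.96 (adjusted p = 0.00894), with Crem probe sets from -1.24 to 0.03. Crem became a call, at up to -1.14, when carotid body array 3 or adrenal medulla array 1 was left out.

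Markers of other cell types also differed between the tissues, in either direction. All 14 measured fibroblast and matrix markers were called higher in carotid body, with means of 11.12 to 11.39 on carotid body arrays, against 8.18 to 8.47 on adrenal medulla arrays. Of the smooth muscle and pericyte markers 12 of 13 were higher (9.89 to 10.11 against 7.73 to 7.87), and of the Schwann and type II glia markers 7 of 9 (9.48 to 9.66 against 7.81 to 7.97). Of 12 endothelial markers 3 were higher, of 11 macrophage and lymphocyte markers 2 were higher, and of 13 ganglion neuron markers 1 was higher and 1 lower. Of 12 cortex markers 10 were lower and 0 higher. Of 11 general catecholamine and neuroendocrine markers 4 were lower, among them Th, Dbh and Slc18a1, 1 was higher and 6 were not called. Their means were 10.11 to 10.63 on carotid body arrays, against 10.65 to 11.41 on adrenal medulla arrays. The marker called higher was Ret, at 1.29 (limma adjusted p = 0.0222, probe sets from 0.24 to 1.29). Ddc, not called, differed by 0.81 (adjusted p = 0.0207, probe sets from -0.40 to 0.81). Ret and Ddc were named after their values were seen. The part of these shifts in the granin differences was not tested.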

How the data were processed

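Expression was measured on 6 Affymetrix arrays, 3 for carotid body and 3 for adrenal medulla. The deposited values are log2 intensities, 1 per probe set and array. Per the submitters' processing notes the authors made them with Affymetrix Expression Console. Its version, algorithm and normalization: not given in the sources used here. A log2 scale was read from the values, 2.70 to 14.97. No detection calls were used, so dim probe sets cannot be told from unexpressed genes, and the number of arrays limits precision.

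Of 45101 probe sets, 64 controls were left out. Names came from the platform annotation of 2016, with 34945 probe sets carrying 1 symbol, 932 several and 9160 none; the gene IDs of 34741 probe sets matched RefSeq (GRCm38.p6), and 0 of these had another symbol there. A gene was represented by its brightest probe set. limma 3.58.1 (R 4.3.3; lmFit, eBayes, no block) was run on all 45037 probe sets and checked on simulated data. P-values are two-sided. Named genes are all members, the 3 largest differences at an adjusted p under 0.05 in each list, Th, Slc18a2, Rest and the 3 nearest profiles per member. Members and lists were chosen with earlier results of these data known. The half-site motifs were settled after the promoter sequences and the tissue differences had been seen. Pairing follows the series' statement on cohorts, and deviations from tissue means correlated at 0.22, 0.08 and 0.16 for same-numbered arrays, against -0.21 to 0.10 for the others. Alternatives were the cohort block, quantile normalization, median centring, a filter on dim probe sets, a variance trend, array weights, treat, averaging of probe sets, and leaving out arrays or cohorts. A choice of pseudocount, planned for linear values, did not apply.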

Additional observations from a re-analysis of the deposited data

How the results depend on the processing

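Chga, Scg2, Scg3 and Scg5 kept their side of the call in each of 17 alternatives, with differences of -2.19 to -1.94, -1.99 to -1.71, -0.26 to 0.11 and -0.57 to -0.22. Chgb kept it in 16, from -1.29 to -0.99, and lost it after quantile normalization (-0.99), when 2 granins were called lower. Vgf kept its call in 7 of 17. It was lost at -2.76 after quantile normalization (adjusted p = 0.0531), at -2.80 with an intensity trend and robust variances (0.107) and with treat against 1.5-fold (0.180), and at -3.08 and -1.77 without cohort 2 and 3 (0.173 and 0.211); without single arrays it ranged from -3.74 to -2.10. The cause was not tested. With the cohort number as a replicate block 4 granins were called lower and 0 higher, and the Vgf difference of -2.80 had an adjusted p of 0.0234; the block changed no granin call. Without single arrays 3 or 4 granins were called lower. The 6 lists of granule genes and their regulators together had 15 called lower with all arrays and 9 with treat. Treat demands more than a 1.5-fold difference. These lists had 16, 8 and 11 called lower without cohorts 1, 2 and 3, and 11 to 18 without single arrays. Genome-wide, 952 probe sets were called lower without cohort 2, against 2064 with all arrays. Centring arrays on their median shifted the median over all probe sets by -0.11 and gave 46.0% of calls as higher in carotid body, against 56.5% as deposited, with 4 granins still called lower.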
